A study of Drosophila melanogaster with 12 samples.

Results

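Mitochondrial ribosomal proteins are the proteins of the ribosome that works inside mitochondria. They were followed here in RNA-seq of whole adult Drosophila melanogaster. The members were all genes whose name in the deposited tables begins with mRpL or mRpS followed by a number, with 1 transcript kept per gene name, the one with the highest total count. This gave 72 of the 14161 genes, 11 from the X-linked table and 61 from the autosomal table. Of the autosomal members 12 lie on arm 2L, 12 on 2R, 17 on 3L and 20 on 3R. The 11 X-linked members are mRpL3, mRpL14, mRpL16, mRpL22, mRpL30, mRpL33, mRpL38, mRpL49, mRpS14, mRpS25 and mRpS30. All 72 passed the filter on low counts, as did 13060 genes in all, and the lowest count of any member in any library was 188.

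The study set females that express MSL2 ectopically beside normal females and normal males, and 3 biological replicates were sequenced for each of 4 groups. Control females and control males both had the genotype y w; +/+; TM3/+, so that both carried 1 copy of TM3, a balancer of chromosome 3. MSL2 females had the genotype y w; (w+) H83M2-6I/+; +/+, with 1 copy of a P-element msl2 construct marked by mini-white and without TM3. The balancer therefore differed together with the transgene. MSL2 males carried the H83M2 construct, and the labels do not give their full genotype, nor the age of the flies. All values are from whole bodies, so fewer cells of a type and less RNA per cell cannot be told apart.

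The mitochondrial ribosome translates the few proteins encoded by mitochondrial DNA, which are core subunits of the respiratory chain and of ATP synthase. In animals all of its proteins are encoded in the nucleus, made in the cytosol and imported, whereas its ribosomal RNAs come from mitochondrial DNA. The large subunit (mRpL) forms peptide bonds and the small subunit (mRpS) decodes the messenger RNA. Many of the proteins have counterparts in bacterial ribosomes, and others are found in mitochondrial ribosomes alone. MSL2 is the limiting protein of the male-specific lethal complex, which binds the X chromosome of males and raises its transcription. Females normally block MSL2 synthesis and do not assemble the complex.

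Transcript levels are given as CPM, a gene's count per 1000000 counts of its library, with TMM scaling between libraries unless stated otherwise. Library totals ran from 27729411 to 79622278 counts. The transgene was visible in the counts, since msl-2 had 15.2 to 18.8 CPM in control females, 30.6 to 32.4 in control males, 447 to 616 in MSL2 females and 392 to 576 in MSL2 males. MSL2 female replicate 1 stood apart from the other libraries of its group. The 14 eggshell genes, made by follicle cells of the ovary, summed to 239 CPM in it, against 1023 and 1641 in the other MSL2 females and 2380 to 4313 in control females. In the same library the 15 female germline genes summed to 1219 CPM, against 2205 and 2421 in the other MSL2 females, and the 9 muscle genes summed to 74322 CPM, against 45125 and 42037. The counts of members called in MSL2 females are therefore also given without this library.

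Among control females, levels per kilobase of transcript spanned a 5.35-fold range over the 72 members, with a median of 38.6 CPM per kilobase. The highest mean was that of mRpL28, the counterpart of bacterial L28, at 85.3 ± 4.28 CPM per kilobase (SD, n = 3). Next came mRpL53 at 83.3 ± 5.73 and mRpL12, a protein of the stalk that contacts translation factors, at 80.1 ± 4.21 CPM per kilobase. Neighbours in this order differed by less than the SD of either gene. The exons of mRpL53 lie wholly within those of CG33155 on the same strand, so its reads cannot be separated from those of that gene. Both genes had the same mean CPM in every group, 69.1 in control females, so the level given for mRpL53 is equally that of CG33155. At the low end mRpL21 stood at 15.9 ± 0.995, mRpL11 at 20.2 ± 2.14 and mRpS18B at 24.5 ± 0.417 CPM per kilobase. In control females the related genes mRpS18A and mRpS18C stood at 47.1 and 31.2 CPM per kilobase. In control males the same 3 genes were highest and the same 3 lowest, but the range widened to 9.79-fold, with a median of 23.8 CPM per kilobase.

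Control males had lower levels than control females for nearly every member. Of the 72 members 71 fell in males and none rose (edgeR quasi-likelihood test, Benjamini-Hochberg adjusted p under 0.05), where 37.6% of all tested genes fell and 34.4% rose. The median log2 fold change was -0.68 over the members and 0.01 over all genes. Summed over the 72 members, the levels came to 2616 ± 50.4 CPM, without TMM scaling, in control females and 1709 ± 76.0 in control males (SD, n = 3). For 71 members all 3 males lay below all 3 females, where the same held for 39.7% of all genes and the reverse for 37.3%. Both subunits shared the difference, with medians of -0.68 over the 46 large-subunit members and -0.68 over the 26 small-subunit members. Members were assigned to a subunit by the letter L or S of the gene name alone, so mRpS30 counts as small-subunit here. Members numbered like bacterial proteins had a median of -0.68 (42 genes) and those with mitochondrial numbers of -0.67 (30 genes).

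**Figure D1:**
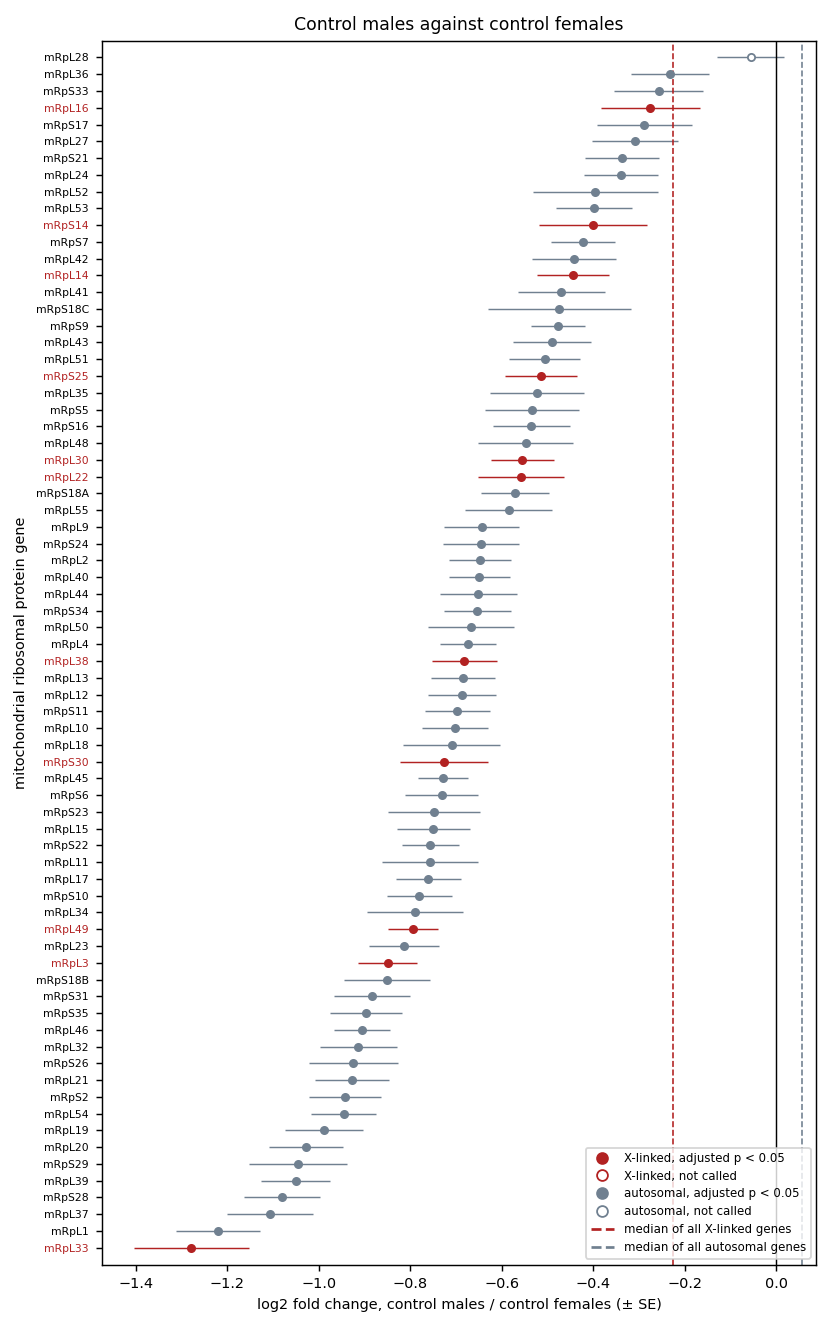
Log2 fold change of each mitochondrial ribosomal protein gene in control males against control females, with SE from edgeR over 12 libraries; red marks the 11 X-linked and grey the 61 autosomal members, filled points passed the adjusted p of 0.05, and dashed lines are the medians of all X-linked and all autosomal genes. All 72 points lie below 0 and only mRpL28, at the top, was not called.

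The largest fall in males was that of X-linked mRpL33, the counterpart of bacterial L33. Control females had 11.5, 10.7 and 12.8 CPM of mRpL33 and control males 4.60, 4.94 and 4.90, a log2 fold change of -1.28 ± 0.13 (SE; edgeR adjusted p = 2.22e-06). Every male library was below every female library, and mRpL33 was also the member with the lowest counts. Autosomal mRpL1, the counterpart of the bacterial protein of the mobile L1 stalk, had 61.7, 60.8 and 55.7 CPM in control females and 24.96, 27.2 and 24.3 in control males (-1.22 ± 0.09, edgeR adjusted p = 2.13e-07). The other large falls were those of mRpL37 (-1.11 ± 0.09), mRpS28 (-1.08 ± 0.08) and mRpL39 (-1.05 ± 0.08). Those 3 genes lie on 3R, 2R and 3L, so the large falls were spread over the chromosomes.

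The exception was mRpL28, the member with the highest level per kilobase. It had 96.0, 97.8 and 105.5 CPM in control females and 95.7, 99.2 and 93.0 in control males, a log2 fold change of -0.06 ± 0.07 that did not pass (edgeR adjusted p = 0.51). The sexes overlapped in this gene and in no other member. The smallest falls that passed were those of mRpL36 (-0.23 ± 0.09, edgeR adjusted p = 0.0284), mRpS33 (-0.26 ± 0.10, adjusted p = 0.0337) and mRpL16 (-0.28 ± 0.11, adjusted p = 0.0399). The call of mRpL16 was lost without any 1 of 5 of the 6 libraries, that of mRpL36 without control female 3 or control male 3, and that of mRpS33 without control female 3, control male 2 or control male 3.

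Members on the X and on the autosomes fell in control males. All 11 X-linked members fell, with a median of -0.56, where 47.8% of all X-linked genes fell, 27.1% rose and their median was -0.23. Of the 61 autosomal members 60 fell, with a median of -0.69, where 35.6% of all autosomal genes fell, 35.8% rose and their median was 0.06. The X-linked share of the members' counts was 16.8 ± 0.130% in control females and 16.9 ± 0.170% in control males (SD, n = 3). For all genes together the X-linked share was 17.04 ± 0.254% in control females and 13.0 ± 0.116% in control males.

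Related gene groups differed between the sexes to different degrees. Of 91 genes of cytosolic ribosomal proteins 84 fell in control males and 7 rose, with a median of -1.23. The risers included RpL22-like, a paralog of a ribosomal protein gene, with a mean of 0.144 CPM in females and 30.1 in males of the control groups. Among 28 factors of mitochondrial translation, RNA and protein quality control 21 fell and 5 rose, with a median of -0.65. The elongation factors mEFTs (1.45 ± 0.07) and mEFTu2 (1.11 ± 0.06) were among the risers, and mtDNA-helicase, which unwinds mitochondrial DNA, fell most (-2.93 ± 0.19). Of 15 mitochondrial tRNA synthetases 10 fell and 3 rose, namely TrpRS-m (3.35 ± 0.08), CysRS-m (2.72 ± 0.10) and ValRS-m (2.12 ± 0.11). Of 67 nuclear-encoded subunits of oxidative phosphorylation, the machinery that holds the products of the mitochondrial ribosome, 4 rose and 1 fell, with a median of 0.01. Of 29 testis forms of mitochondrial genes 28 rose in males and none fell, and mEFTu2 and mRRF2 stand in that list as well as among the translation factors. The same list also shares an ATP synthase gene with the oxidative phosphorylation list. Under other gene names tko, which encodes mitochondrial protein S12, bonsai, which encodes S15, and Rlc1, named mRpL47 by RefSeq, fell by 0.98, 0.83 and 0.86 on the log2 scale.

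Markers of the gonads differed between the same groups by far more than the members. Their median log2 fold changes in control males were 7.36 over testis, -4.10 over female germline and -8.34 over eggshell genes. The 16 testis genes summed to 49.97 to 71.9 CPM in control females and 2913 to 3381 CPM in control males. The 15 female germline genes summed to 2129 to 2557 CPM in control females and 1219 to 1295 CPM in control males, and 14 of them fell in males. The gene exu, which the testis also expresses, rose in males, from a mean of 165.6 to 876.6 CPM. The 14 eggshell genes summed to 2380 to 4313 CPM in control females and 13.1 to 22.9 CPM in control males, and all 14 fell. The part of the gonads in the lower level of the mitochondrial ribosomal genes in males was not tested.

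In MSL2 females, X-linked and autosomal members parted. Of the 11 X-linked members 5 rose against control females and none fell, where 22% of all X-linked genes rose and 0.723% fell. Of the 61 autosomal members 7 fell and none rose, where 4.22% of all autosomal genes fell and 3.71% rose. The remaining 6 X-linked and 54 autosomal members did not pass. The median log2 fold change was 0.25 over the X-linked members, beside 0.19 over all X-linked genes, and -0.13 over the autosomal members, beside -0.04 over all autosomal genes. All 3 MSL2 females lay above all 3 control females for 7 X-linked members and for no autosomal member, and below them for 23 autosomal members and no X-linked one. Of all X-linked genes 34.3% lay wholly above and 2.55% wholly below, and of all autosomal genes 9.05% above and 15.6% below. Without MSL2 female replicate 1 the calls were 4 X-linked rises and 5 autosomal falls. Over all genes that run called 1005, where the run with all libraries called 1344.

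**Figure D2:**
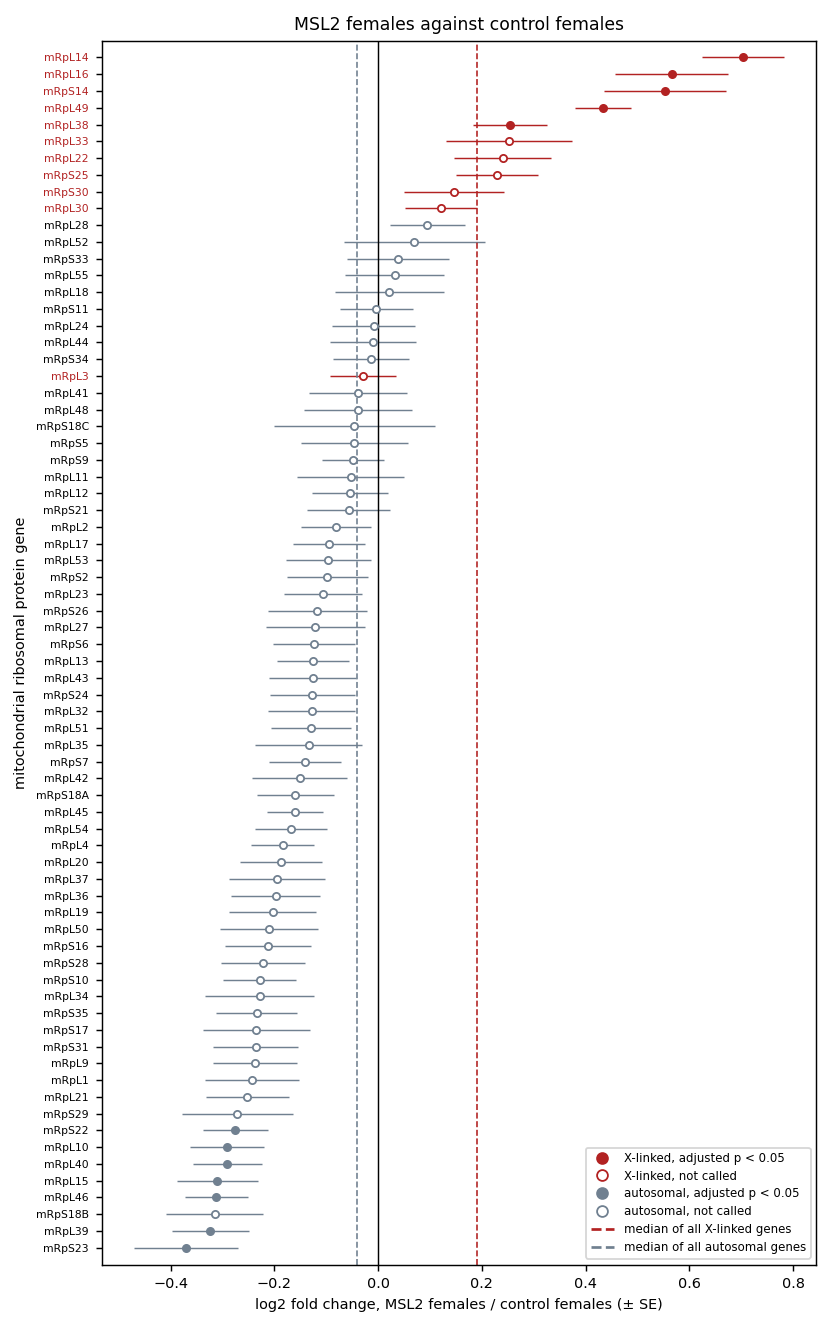
Log2 fold change of each mitochondrial ribosomal protein gene in MSL2 females against control females, with SE from edgeR over 12 libraries and symbols as for the sex difference. The 10 highest points are X-linked members, the remaining X-linked member, mRpL3, lies just below 0, and 56 of the 61 autosomal members lie below 0.

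The X-linked rise was led by mRpL14, the counterpart of a bacterial protein at the interface of the subunits. Control females had 26.8, 30.1 and 29.9 CPM of mRpL14 and MSL2 females 52.0, 44.5 and 44.8, a 1.63-fold rise (log2 0.70 ± 0.08, edgeR adjusted p = 0.000568). All 3 MSL2 females lay far above the control females, and replicate 1 was the highest. For mRpL49, a large-subunit protein with a mitochondrial number, control females had 38.4, 39.8 and 40.0 CPM and MSL2 females 53.7, 54.2 and 51.7, a 1.35-fold rise (log2 0.43 ± 0.05, edgeR adjusted p = 0.00114). Its libraries were close within each group and wide apart between them. The calls of mRpL14 and mRpL49 held under every alternative run.

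The other 3 rises were less even. The counts of mRpL16, whose bacterial counterpart lies near the tRNA sites, were 34.1, 35.4 and 37.1 CPM in control females and 62.0, 44.5 and 51.2 in MSL2 females (log2 0.57 ± 0.11, edgeR adjusted p = 0.00988). For mRpS14, a protein of the head of the small subunit, the values were 23.2, 23.01 and 26.7 CPM in control females and 42.3, 32.6 and 32.1 in MSL2 females (log2 0.55 ± 0.12, edgeR adjusted p = 0.0158). In both genes MSL2 female replicate 1 was highest, and all MSL2 females were above all control females. Leaving out control female 1 or control female 2 ended the call of mRpS14 (edgeR adjusted p = 0.0641 and 0.0685), and those of mRpL16 and mRpS14 in a fit of these 2 groups alone. Least was the rise of mRpL38, a protein of the central protuberance in mammals, with 39.4, 45.2 and 44.7 CPM in control females and 51.9, 49.5 and 52.7 in MSL2 females (log2 0.25 ± 0.07, edgeR adjusted p = 0.0464). Its call was lost without any 1 of the 6 libraries.

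Some of these genes share exon sequence with a neighbour, and the counting is not stated to use strand. Exons of mRpS14 overlap those of Naa15-16 on the other strand over 32.0% of their bases, and Naa15-16 stood at a log2 fold change of 0.05 in MSL2 females against control females (edgeR adjusted p = 0.783). Against control males Naa15-16 was itself higher in MSL2 females (log2 1.66, edgeR adjusted p = 1.46e-07). It was lower in control males than in control females (log2 -1.60, edgeR adjusted p = 1.89e-07). For mRpL16 the overlap with arm, on the other strand, is 7.62%, and arm rose (log2 0.41, edgeR adjusted p = 0.00333). Between mRpL14, mRpL38 or mRpL49 and other genes the annotation holds no exon overlap. In all, 42 of the 72 members overlap another gene and 8 do so over more than 20% of their exon bases.

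The 6 X-linked members that did not pass ranged from -0.03 to 0.25. The protein of mRpL22 lines the exit tunnel for the growing chain in bacterial ribosomes. Its gene had 38.6, 38.4 and 41.9 CPM in control females and 52.0, 43.0 and 45.4 in MSL2 females (log2 0.24 ± 0.09, edgeR adjusted p = 0.119). Similar in pattern was mRpS25, a small-subunit gene with a mitochondrial number, with 17.8, 19.6 and 20.6 CPM against 23.9, 21.2 and 22.8 (0.23 ± 0.08, edgeR adjusted p = 0.0855). In both genes the groups did not overlap. They did overlap in mRpL33 (0.25 ± 0.12), mRpL30 (0.12 ± 0.07) and mRpS30 (0.15 ± 0.10), whose mammalian counterpart sits in the large subunit. Alone among the X-linked members, mRpL3, whose bacterial counterpart reaches the site of peptide bond formation, lay below 0, with 42.7, 44.2 and 47.4 CPM in control females and 46.4, 41.6 and 43.5 in MSL2 females (-0.03 ± 0.06, edgeR adjusted p = 0.788).

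**Figure D3:**
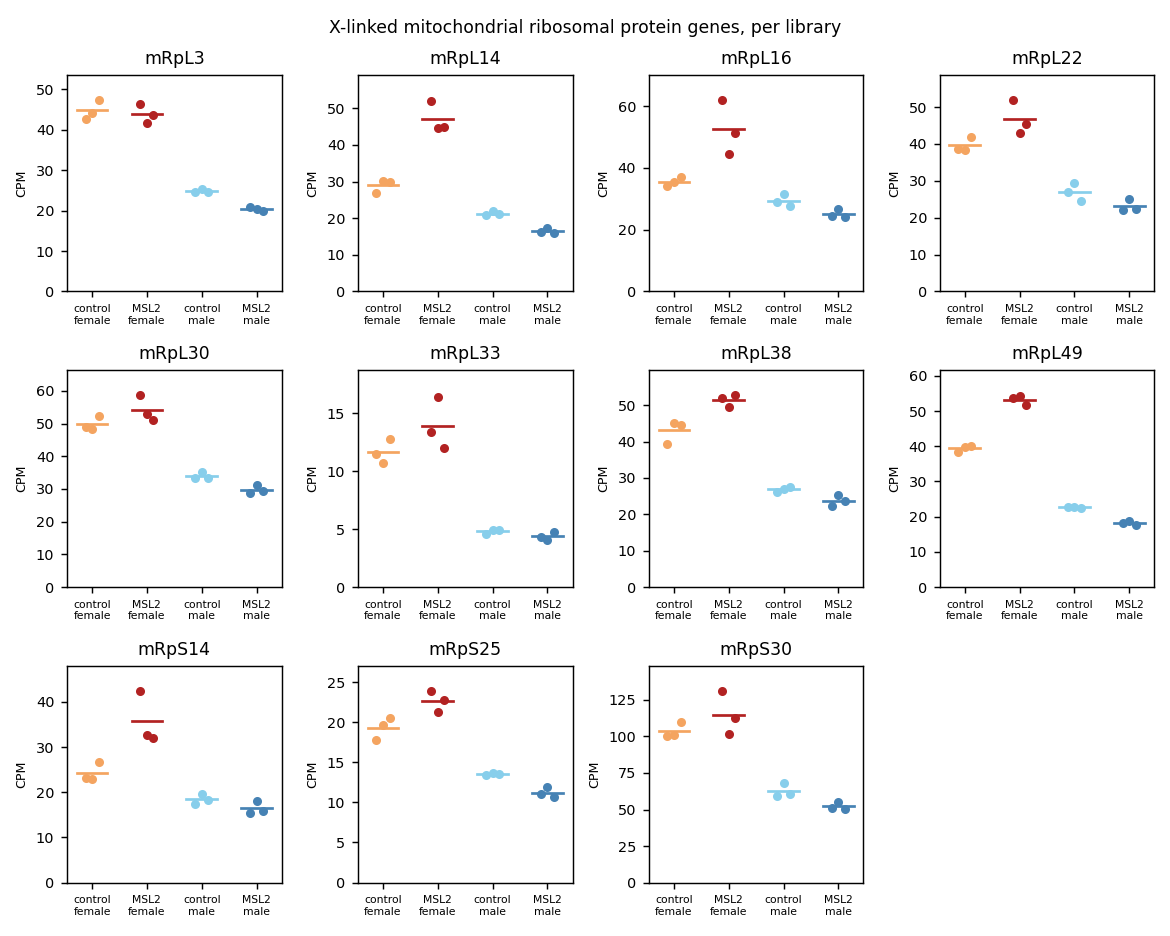
CPM per library (points) and group mean (line) of the 11 X-linked members in control females, MSL2 females, control males and MSL2 males, each panel with its own axis from 0. Both male groups lie below both female groups in every panel, while MSL2 females lie clear above control females in 7 panels, mRpL14, mRpL16, mRpL22, mRpL38, mRpL49, mRpS14 and mRpS25.

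The 7 autosomal falls were small, between 0.28 and 0.37 on the log2 scale. The lowest value was that of mRpS23, a small-subunit gene with a mitochondrial number, with 17.9, 17.4 and 18.1 CPM in control females and 13.1, 12.6 and 15.5 in MSL2 females (-0.37 ± 0.10, edgeR adjusted p = 0.0417). For mRpL46 the values were 42.3, 40.96 and 41.7 CPM in control females and 32.3, 34.2 and 34.1 in MSL2 females (-0.31 ± 0.06, edgeR adjusted p = 0.0106). In these genes all MSL2 females lay below all control females. The others were mRpL39 (-0.32 ± 0.07), mRpL15 (-0.31 ± 0.08), mRpL40 (-0.29 ± 0.07), mRpL10 (-0.29 ± 0.07) and mRpS22 (-0.28 ± 0.06). The proteins of mRpL15 and mRpL10 have bacterial counterparts, L15 in the core of the large subunit and L10 at the base of the stalk. Of the 7, the call of mRpL46 alone held without each of the 6 libraries, but a fit of these 2 groups alone called none of the 7 (adjusted p = 0.0936 for mRpL46). With the replicate number as a block 2 autosomal members were called lower. Depending on the library left out, between 1 (without control female 2) and 14 (without MSL2 female 3) autosomal members were called lower. There were 2 without MSL2 female 2, 3 without control female 1 and 3 without control female 3. Calls over all genes, in either direction, moved as well, from 1344 in the main fit to 543 without control female 2. They numbered 2851 without MSL2 female 3, 826 without MSL2 female 2, 584 without control female 1 and 1566 without control female 3. Of the overlapping neighbours, Polr2C, which shares 8.06% of the exon bases of mRpS23 on the other strand, also fell (-0.36, edgeR adjusted p = 0.0221).

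MSL2 females lacked the chromosome 3 balancer and, by the order of the labelled genotype, carried the construct on chromosome 2, so the autosomal members were also read by chromosome. On chromosome 2 the median was -0.14 over 24 members, of which 2 fell, beside -0.04 over all genes of chromosome 2, of which 2.76% fell. On chromosome 3 the median was -0.13 over 37 members, of which 5 fell, beside -0.05 over all genes of chromosome 3, of which 5.58% fell. Both medians lay below that of all genes of the chromosome. By the subunit letter of the gene name, the autosomal members had medians of -0.13 (38 large) and -0.14 (23 small).

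As a share of all members' counts, the X-linked members made up 16.7, 16.7 and 16.9% in control females and 22.8, 20.4 and 20.6% in MSL2 females. Every MSL2 female was above every control female, and replicate 1 was highest. Over all genes the X-linked share of counts was 17.04 ± 0.254% in control females and 18.6 ± 0.293% in MSL2 females (SD, n = 3). The X-linked members summed to 439 ± 11.6 CPM, without TMM scaling, in control females and 528 ± 21.4 in MSL2 females, and the autosomal members to 2177 ± 38.9 and 1956 ± 78.3. Together they made up 2616 ± 50.4 CPM in control females and 2484 ± 60.5 in MSL2 females.

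**Figure D4:**
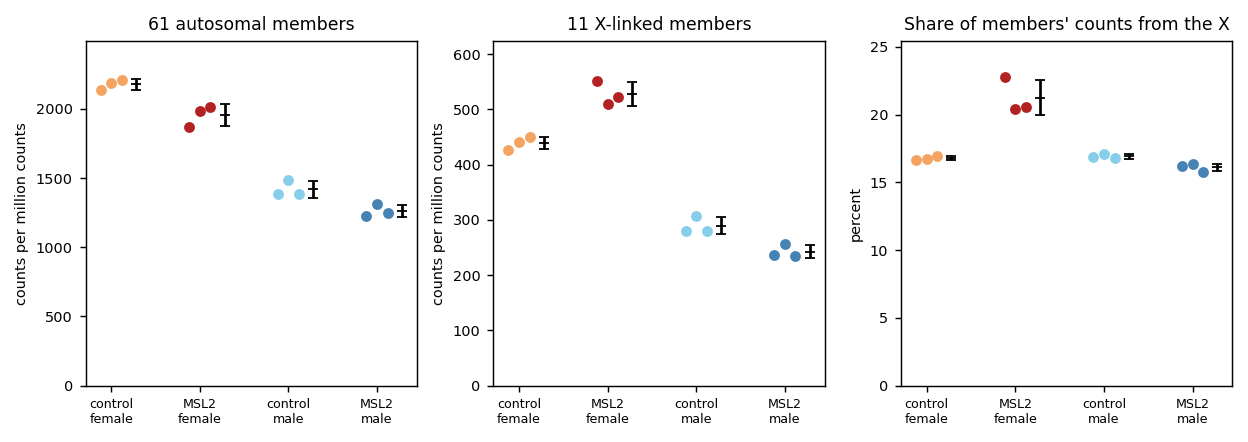
Summed CPM, without TMM scaling, of the 61 autosomal members (left) and of the 11 X-linked members (middle), and the X-linked share of the members' counts in percent (right), per library (points) with mean ± SD (n = 3). The X-linked share is 20.4 to 22.8% in MSL2 females and 15.8 to 17.1% in all other libraries.

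Related gene groups were counted in the same comparison of MSL2 females with control females. Of 67 nuclear-encoded subunits of oxidative phosphorylation 13 rose and none fell. Among the 12 X-linked ones 11 rose, with a median of 0.78, while of the 55 autosomal ones 2 rose, with a median of 0.20. The complex I subunits ND-B14.5A (0.84 ± 0.11, edgeR adjusted p = 0.00141) and ND-24 (0.80 ± 0.12, adjusted p = 0.00276) and the complex III subunit UQCR-14 (0.80 ± 0.13, adjusted p = 0.00438) had the smallest p. Of 15 X-linked cytosolic ribosomal protein genes 1 rose, with a median of 0.06, and of 76 autosomal ones 1 rose and 5 fell, with a median of -0.21. Factors of mitochondrial translation, RNA and protein quality control had 6 falls and no rise among 28 (median -0.16), among them the elongation factor mEFG1 (-0.30 ± 0.07) and the initiation factor mIF3 (-0.29 ± 0.07). Of 15 mitochondrial tRNA synthetases 2 fell, LeuRS-m (-0.37 ± 0.08) and ValRS-m (-0.47 ± 0.11). Among the mitochondrial ribosomal proteins under other names, X-linked tko rose (0.29 ± 0.07, edgeR adjusted p = 0.0252), while bonsai (-0.12 ± 0.07) and Rlc1 (-0.14 ± 0.08) did not pass.

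**Figure D5:**
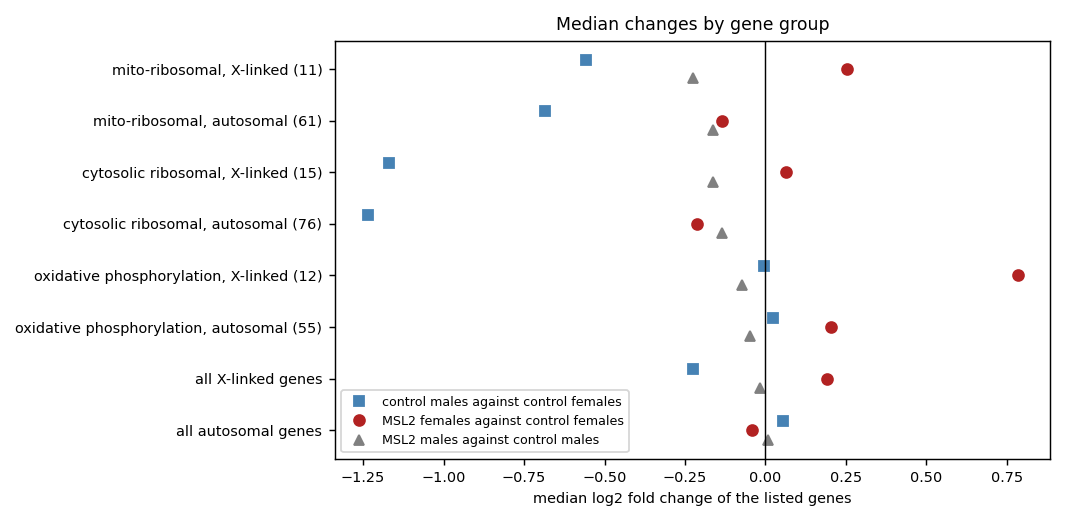
Median log2 fold change of X-linked and autosomal genes of the mitochondrial ribosome, the cytosolic ribosome and oxidative phosphorylation, with the number of genes in brackets, beside all X-linked and all autosomal genes, for 3 comparisons, of which control males against control females shares 1 control group with each of the others. In control males against control females the members' medians are -0.56 and -0.69, between those of cytosolic ribosomal (-1.17 and -1.24) and oxidative phosphorylation genes (0.00 and 0.02).

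Tissue markers also differed between MSL2 and control females. The 14 eggshell genes summed to 239 to 1641 CPM in MSL2 females, below the 2380 to 4313 CPM of control females, with 2 falls called and a median of -2.10. The 15 female germline genes summed to 1219 to 2421 CPM against 2129 to 2557 CPM, with 1 fall (bam) and a median of -0.46. Of 11 photoreceptor genes 9 rose, with sums of 4886 to 5755 CPM against 3662 to 3953. Of 9 muscle genes none was called, with a median of 0.45 and sums of 42037 to 74322 CPM against 34916 to 50054. The part of these tissues in the autosomal falls or the X-linked rises was not tested.

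Against control males, the other reference of the study, MSL2 females had higher levels of nearly all members. Of the 72 members 68 were higher and none was lower, where 38.6% of all genes were higher and 31.3% lower. All 11 X-linked members were higher, with a median of 0.87, where 58.7% of all X-linked genes were higher, 20.5% lower, with a median of 0.54. Of the autosomal members 57 were higher, with a median of 0.54, where 34.8% of all autosomal genes were higher, 33.4% lower, with a median of 0.03. For 68 members all MSL2 females lay above all control males, as for 38.5% of all genes, while 32% of all genes lay wholly below. Without MSL2 female replicate 1, 11 X-linked members (median 0.78) and 56 autosomal members (median 0.54) were higher. Over all genes that run called 9604 in either direction, where the run with all libraries called 9125. In the comparison with all libraries the 4 members that did not pass were mRpL27, mRpL28, mRpL36 and mRpS17. This comparison shares the control males with the sex difference and the MSL2 females with the comparison among females, so its values are not independent of either.

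The largest difference from control males was that of mRpL33, with 13.4, 16.4 and 12.02 CPM in MSL2 females against 4.60, 4.94 and 4.90 in control males, a 2.89-fold higher level (log2 1.53 ± 0.13, edgeR adjusted p = 4.85e-07). Next stood mRpL49 (1.23 ± 0.06), mRpL14 (1.15 ± 0.08), mRpL1 (0.98 ± 0.09) and mRpS14 (0.95 ± 0.12). In mRpL33 and mRpL1 control males were low against both female groups, while mRpL14 and mRpS14 were also raised in MSL2 females over control females. For mRpL14 the values side by side were -0.44 ± 0.08 in control males against control females, 0.70 ± 0.08 in MSL2 females against control females and 1.15 ± 0.08 in MSL2 females against control males.

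In MSL2 males, 1 member passed against control males. X-linked mRpL49 had 22.9, 22.8 and 22.5 CPM in control males and 18.2, 18.9 and 17.6 in MSL2 males (log2 -0.32 ± 0.06, edgeR adjusted p = 0.0254), where 0.459% of all genes fell and 0.352% rose. All MSL2 males lay below all control males, but the call was lost without any 1 of the 6 libraries. The other 71 members did not pass. An unadjusted p below 0.05 was found for 35 of the 72 members and for 7.89% of all genes. By DESeq2 4 X-linked and 4 autosomal members were lower, where 1.06% of all genes were. Of the 72 log2 fold changes 71 lay below 0, with a median of -0.18 over the members and 0.00 over all genes. For 49 members all MSL2 males lay below all control males and for none above them, where 12.1% of all genes lay wholly below and 11.1% wholly above.

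The lowest values in MSL2 males were close to one another. X-linked mRpL14 had 20.8, 22.01 and 21.1 CPM in control males and 16.3, 17.25 and 15.9 in MSL2 males (-0.37 ± 0.08, edgeR adjusted p = 0.0722). Autosomal mRpL12 had 35.4, 39.5 and 35.4 CPM in control males and 28.6, 28.8 and 28.1 in MSL2 males (-0.37 ± 0.07, adjusted p = 0.0554). The groups did not overlap in either gene, and neither passed. The medians were -0.22 over X-linked and -0.16 over autosomal members, and the members' summed levels were 1709 ± 76.0 CPM, without TMM scaling, in control males and 1504 ± 55.6 in MSL2 males (SD, n = 3). Cytosolic ribosomal protein genes had a median of -0.14 with no call among 91, and oxidative phosphorylation genes a median of -0.05 with no call among 67. Testis markers summed to 2913 to 3381 CPM in control males and 3422 to 3710 CPM in MSL2 males, and photoreceptor markers to 3868 to 4392 and 4555 to 5090 CPM, each with no gene called. The part of either tissue in the members' values was not tested.

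The transgene effect differed between the sexes for 3 members, all X-linked, in a test of that difference over 4 groups. The effect in females exceeded that in males by 1.07 ± 0.11 on the log2 scale for mRpL14 (edgeR adjusted p = 0.00276), 0.75 ± 0.08 for mRpL49 (adjusted p = 0.00276) and 0.79 ± 0.15 for mRpL16 (adjusted p = 0.036). Among all X-linked genes 5.49% had a higher effect in females and 0.0482% a lower one. The next members were mRpS25 (0.51 ± 0.11, adjusted p = 0.0604) and mRpS14 (0.72 ± 0.17, adjusted p = 0.0735), which did not pass. All 11 X-linked differences were above 0, with a median of 0.45 beside 0.22 over all X-linked genes. No autosomal member passed, where 0.218% of all autosomal genes had a higher and 0.237% a lower effect in females. The median difference was 0.00 over the autosomal members and -0.04 over all autosomal genes. Without MSL2 female replicate 1 the calls were again 3 X-linked members and no autosomal one, with an X-linked median of 0.43. Over all genes that run called 205, where the run with all libraries called 165. The call of mRpL16 was lost without any 1 of 9 of the 12 libraries, with adjusted p up to 0.111. In females the balancer differed together with the transgene, and the labels do not give it for MSL2 males. Balancer and transgene therefore cannot be told apart in this difference.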

How the data were processed

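RNA-seq counts of 12 libraries were used, 3 per group, grouped by the sample titles. Per the submitters' processing notes, TopHat, HTSeq and build dm3 were used. Counting mode, strand handling and versions are not stated there. The authors deposited, per the file headers, raw read counts per RefSeq transcript and a normalized column, in 1 table for autosomal and 1 for X-linked genes. Checked on the values, the deposited normalized column is a fraction, the count over the total of its own table, and it was not used further. Counts of both tables were tested together with edgeR 4.0.16 in R 4.3.3 (TMM, minimum count 10 in filterByExpr, quasi-likelihood test over 12 libraries, Benjamini-Hochberg over 13060 genes, threshold 0.05). The SE is the absolute log2 fold change over the square root of F. Replicates are biological per the labels; whether they came from separate cultures is not stated, so p-values measure the spread between these libraries.

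Arms and current symbols came from RefSeq (Release 6 plus ISO1 MT), to which all 72 members matched by accession, and lengths and exon overlaps from Ensembl release 115, a later build than dm3, so no coordinates are given. The length is that of the longest spliced transcript. Alternatives were DESeq2 1.42.0, RLE factors, scaling by autosomal genes, no filter, all transcripts as rows, the compared groups alone, a replicate block and leaving out each library. Same-numbered libraries of different groups did not deviate together on average (Pearson r from -0.56 to 0.60, mean -0.04, over 18 pairs). Over 36 pairs with different numbers r ran from -0.59 to 0.58, with a mean of 0.02. No pairing was assumed, and the replicate block is given as an alternative.

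The members, the gene lists and the rule for named genes were chosen with earlier results of these data known. The test was run on simulated counts, drawn separately for each gene with the fitted spread. These counts held no shift shared between genes, so that check does not cover a library such as MSL2 female replicate 1. Named were all X-linked members, up to 5 called members per direction and comparison with groups that do not overlap, the 3 mRpS18 genes, the 3 highest and 3 lowest levels per kilobase, members under other names, and up to 3 genes per other list by smallest p. Outside this rule, mRpL10, mRpS22, mRpL27, mRpL36, mRpS17, mRpS33, the lowest values in MSL2 males, mRRF2, exu, bam, arm, Naa15-16 and Polr2C were named after their values were seen. Not matched were 1 translation factor, 2 tRNA synthetases, 2 oxidative phosphorylation genes, 2 testis forms and 1 muscle marker. No gene of mitochondrial DNA was matched. The 11 accessory gland markers rose in control males (11 of 11). None was called in MSL2 females against control females or in MSL2 males against control males, and all 11 were lower in MSL2 females against control males.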

Additional observations from a re-analysis of the deposited data

Results flagged for a closer look

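In 3 X-linked members the transgene effect differed between the sexes in a test of the difference itself. The female effect exceeded the male effect on the log2 scale by 1.071 for mRpL14, by 0.7509 for mRpL49 and by 0.79 for mRpL16. In each the transgene value was above 0 in females and below 0 in males. For mRpL14 it was 0.70 in females and -0.37 in males, for mRpL49 0.43 and -0.32, and for mRpL16 0.57 and -0.22. A value below 0 in males was shared by 71 of the 72 members. Of the 3 male values only that of mRpL49 passed, and its call was lost without any 1 of the 6 libraries. Balancer and transgene cannot be told apart in these differences.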

How the results depend on the processing

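In control males against control females 65 to 71 of the 72 members fell under the alternatives run and none rose. Leaving out 1 library gave 10 to 11 X-linked and 55 to 60 autosomal falls, with medians from -0.64 to -0.52 and from -0.74 to -0.66. In MSL2 females against control females, X-linked rises numbered 3 to 4 without 1 library (median 0.22 to 0.28) and 2 in a fit of these 2 groups alone; all transcripts gave a median of 0.17. Autosomal falls there numbered 18 with DESeq2, 12 with all transcripts, 0 with the 2 groups alone, 2 with the replicate block and 1 to 14 without 1 library. In the 2 groups alone 156 of all genes were called, with the replicate block 669, and 1344 in the fit of 12 libraries. DESeq2 called 2052 genes, 935 of them lower, where the fit of 12 libraries called 479 lower. With all transcripts as rows 1850 of 21563 were called. The autosomal median was -0.17 with DESeq2, -0.18 with RLE factors, -0.10 with autosomal scaling and -0.22 with all transcripts. Without 1 library it was -0.18 to -0.11. Over all genes the median moved too, from -0.006 in the main fit to -0.046 with DESeq2 and -0.047 with RLE factors. It was 0.028 with autosomal scaling and -0.073 with all transcripts. Against control males, 11 X-linked and 56 to 58 autosomal members were higher without 1 library (medians 0.78 to 0.98 and 0.53 to 0.61). The autosomal median was 0.45 with DESeq2, 0.45 with RLE factors, 0.62 with autosomal scaling, 0.41 with all transcripts and 0.46 with these groups alone. Beside these, the median over all genes was 0.089 in the main fit, -0.009 with DESeq2 and -0.002 with RLE factors. With autosomal scaling it was 0.172, with all transcripts -0.021 and with these groups alone 0.012. The number of autosomal members higher was 59 with autosomal scaling, 49 with all transcripts and 47 with these groups alone. Of all genes 9125 were called in the main fit, 9364 with autosomal scaling and 8130 with these groups alone. With all transcripts 14620 of 21563 rows were called.

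In MSL2 males, X-linked falls numbered 4 with DESeq2, 2 with RLE factors, 3 with the groups alone, 0 with the replicate block and 0 without any 1 library (medians -0.27 to -0.17). Autosomal falls numbered 4 with DESeq2, 1 with the groups alone and 0 without any 1 library (medians -0.19 to -0.12). Of all genes 106 were called in the main fit and 282 with DESeq2. The number was 108 with RLE factors, 287 with the groups alone, 51 with the replicate block and 41 to 57 without 1 library. For the difference of the transgene effect, 165 of all genes were called in the main fit, 421 with DESeq2 and 207 with autosomal scaling. X-linked calls among the members numbered 7 with DESeq2, 5 with autosomal scaling and 2 to 4 without 1 library (medians 0.43 to 0.53). All transcripts gave a median of 0.37 for this difference. Its autosomal median was -0.0398 with DESeq2, -0.0398 with RLE factors, 0.0407 with autosomal scaling and -0.0734 with all transcripts. Without 1 library it was -0.0226 to 0.0534. Over all genes the median was 2.79e-05 in the main fit, -0.041 with DESeq2 and -0.042 with RLE factors. It was 0.040 with autosomal scaling and -0.066 with all transcripts. The causes were not tested.

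For named members, 1017 of the values under alternatives had the same outcome as the main fit, whether called or not called. A call was lost in 77, gained in 16 and reversed in none. With the replicate block, 6 of the 12 calls in females were kept. Scaling by autosomal genes moved the share of rises among all genes called in females from 64.4% to 74.9%, and DESeq2 gave 54.4%. For the difference of the transgene effect that share was 83.6%, and 71.97% with DESeq2. The libraries differ in depth by the range given, and small changes such as those of the autosomal members lie near the threshold.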
